A study of Caenorhabditis elegans with 12 samples.

Results

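The Caenorhabditis elegans genes M162.12, W06A11.4, ZC204.14, M04F3.3, R10F2.6, W09C3.1, C18H2.2, F56D6.16, K06B9.4 and K03D7.1 were followed across temperature, descent and loss of a histone methyltransferase. They were picked by name because their counts were above the control libraries both in worms kept warm and in cooled descendants of those worms. These are 10 of the 45836 gene rows in the deposited table, which also lists 53925 single repeat copies, and all 10 passed the filter on low counts that left 14466 genes tested. By the RefSeq gene table of assembly WBcel235, M162.12 (chromosome V), W06A11.4 (II), C18H2.2 (III), F56D6.16 (IV) and K06B9.4 (IV) are pseudogenes, and ZC204.14 (II), M04F3.3 (I), R10F2.6 (III) and W09C3.1 (I) are protein coding. M04F3.3 carries the name kin-35 there, of the protein kinase class. K03D7.1 had no match, and the matched gene rows on both sides of it lie on V.

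RNA came from whole gravid adults in 4 groups of 3 libraries, each library from 3 plates. F0 worms were wild-type N2 held at 25 °C for 5 generations and collected at 54 to 56 h. For F3, part of that population was shifted to 20 °C as L4 larvae, held there for 3 generations and collected at 72 to 76 h, while N2 controls were raised at 20 °C alongside. The mutants were strain MT17463, set-25(n5021) III, raised at 20 °C and collected at 72 to 76 h, with no wild-type population named as grown in parallel, so that genotype and time of culture cannot be told apart. Temperature and hours of growth likewise differed together between F0 and both F3 and the mutants, and the protocol gives no separate hours for the controls. Library names begin with SL for the mutants and with WH or WL for all wild-type libraries. What these prefixes stand for is not stated. Any difference in handling between the SL libraries and the rest cannot be told apart from genotype.

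SET-25 is a methyltransferase that adds the final methyl group to lysine 9 of histone H3, and MET-2 adds the earlier ones. In worms this mark covers many transposons, other repeats and pseudogenes, where it helps to keep transcription low and holds chromatin at the nuclear edge. Nuclear RNA interference can place the same mark, and both have been studied for how a silent or active state passes between generations.

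Total counts ran from 10678819 to 35483865, the lowest in set-25 replicate 3. Repeat rows of ribosomal RNA took 0.534% to 0.776% of counts in 10 libraries, 4.17% in set-25 replicate 1 and 11.9% in set-25 replicate 3. Replicates of the mutant differed most, with a chi-square per degree of freedom of 61.7 to 229 between pairs, against 3.98 to 4.52 within control, 5.59 to 5.77 within F0 and 18.3 to 40.5 within F3. Markers of yolk, oocytes, embryos, sperm, germ line, epidermis, muscle and neurons were detected in every group. In whole animals, fewer cells of a type and less RNA per cell cannot be told apart. Levels below are CPM (counts scaled to library size, here with TMM factors), not divided by gene length, so levels are compared between libraries for 1 gene and not between genes.

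All 10 genes lay above control in every F0 and every F3 library, which is how they were chosen. Over all tested genes, 26% had every F0 library above every control library and 4.71% every F3 library. A call (edgeR quasi-likelihood fit, Benjamini-Hochberg adjusted p under 0.05) held for 10 of 10 in F0, where 16.6% of all tested genes were called higher, and for 10 of 10 in F3, where 0.138% were. A total of 18 genes (0.124%) was called higher in both, and the other 8 were bath-12, bath-13, C14B9.2, ceh-20, F30B5.4, fbxa-136, snt-2 and Y102A11A.8. Since the choice rested on these contrasts, nothing is read from those counts. Among the 10, K03D7.1 had the smallest log2 change in F3, 0.34 (SE 0.07), and M162.12 the largest, 2.00 (SE 0.18). The 8 not picked ran from C14B9.2 at 0.31 (SE 0.05) to fbxa-136 at 1.91 (SE 0.34) in F3. Without F3 replicate 2 the F3 call held for 5 of the 10, and with only the 6 libraries compared in the fit it held for 6.

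**Figure D1:**
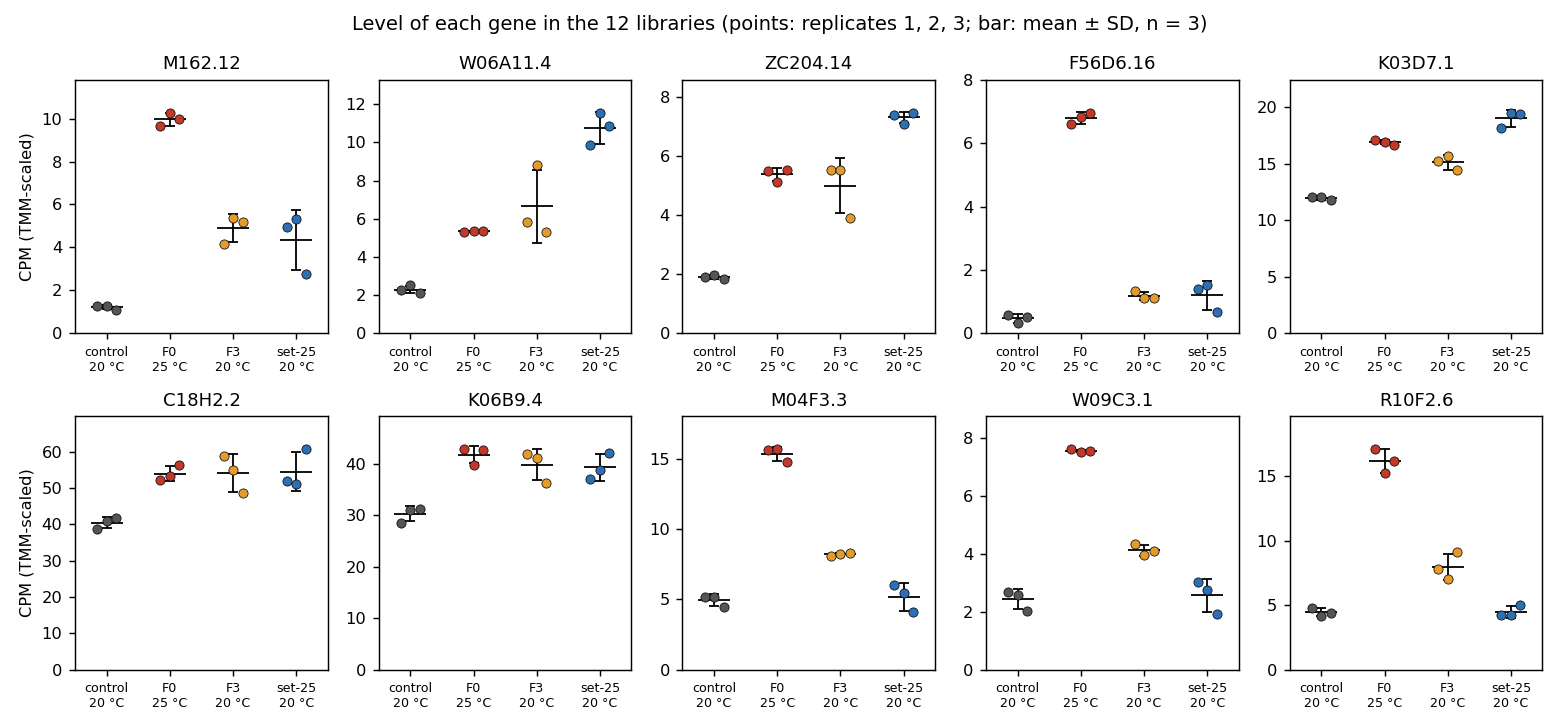
Level of each of the 10 genes in CPM (vertical axis, linear from 0) in control, F0, F3 and set-25 libraries; points are replicates, bars the mean ± SD of 3. The top row and the first 2 panels of the bottom row hold the 7 genes above control in the mutant, and the last 3 panels hold M04F3.3, W09C3.1 and R10F2.6, whose mutant and control libraries overlap.

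The set-25 transcript itself read 69.7, 65.9 and 66.7 CPM in control and 59.1, 59.2 and 50.7 CPM in the mutant. Mutant libraries were lower without overlap, with a log2 change of -0.24 (SE 0.07, edgeR adjusted p 0.0328). A count over the whole gene does not show which part of it the allele affects, so it does not check the genotype.

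In set-25 mutants at 20 °C, 7 of the 10 genes were called higher than control (edgeR, adjusted p under 0.05), where 8.9% of all tested genes were. The same 7 had every mutant library above every control library, as did 18.8% of all tested genes. The median log2 change of the 10 was 0.54, beside -0.0013 over all tested genes. This comparison uses the same control libraries as those by which the genes were picked. Comparisons of the mutant with F0 or F3, and of F3 with F0, also use libraries that entered the choice. Each of the 7 kept its call in all 14 alternatives tried, including set-25 replicate 2 on its own, which has the low ribosomal share. The remaining 3, M04F3.3, W09C3.1 and R10F2.6, were not called. Grouping the genes by their mutant level, as below, was done after the values were seen.

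W06A11.4, a pseudogene, had its highest levels in the mutant. Its control libraries read 2.24, 2.50 and 2.101 CPM and its F0 libraries 5.32, 5.34 and 5.34 CPM. F3 gave 5.83, 8.81 and 5.28 CPM, and the mutant 9.86, 11.6 and 10.9 CPM. Every mutant library was thus above every wild-type library, while F3 overlapped F0. The log2 change against control was 1.22 (SE 0.17) in F0, 1.54 (SE 0.17) in F3 and 2.23 (SE 0.17, adjusted p 7.12e-08 by edgeR) in set-25. Against F0 the mutant was higher by 1.01 (SE 0.15, edgeR adjusted p 5.79e-05), and against F3 by 0.69 (SE 0.15, edgeR adjusted p 0.0046). F3 and F0 were not separated, at 0.32 (SE 0.15, edgeR adjusted p 0.116), although the difference passed without F3 replicate 1 (0.42, adjusted p 0.049) and without F3 replicate 3 (0.46, adjusted p 0.0219), both of which leave in replicate 2, the high one.

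ZC204.14, a protein-coding gene with no name of its own, followed a like order. Control libraries gave 1.90, 1.97 and 1.83 CPM. Levels were 5.50, 5.11 and 5.51 CPM in F0, 5.53, 5.52 and 3.91 CPM in F3, and 7.37, 7.09 and 7.46 CPM in the mutant. The mutant libraries again stood above all others, and F0 and F3 overlapped. In set-25 the log2 change against control was 1.94 (SE 0.15, edgeR adjusted p 8.17e-08), beside 1.499 (SE 0.14) in F0 and 1.40 (SE 0.15) in F3. The mutant exceeded F0 by 0.44 (SE 0.13, edgeR adjusted p 0.0133) and F3 by 0.54 (SE 0.13, adjusted p 0.0105). With set-25 replicate 2 alone, assumed to vary like the other groups, these differences were 0.40 (adjusted p 0.138) and 0.50 (adjusted p 0.167) and no longer passed. F3 against F0 was -0.10 (SE 0.13, edgeR adjusted p 0.596), with an interval of -0.35 to 0.15.

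K03D7.1 moved less and in the same order. It read 12.03, 12.07 and 11.78 CPM in control and 17.1, 16.9 and 16.7 CPM in F0. In F3 it read 15.2, 15.7 and 14.4 CPM, and in the mutant 18.1, 19.5 and 19.4 CPM. No groups overlapped, with control lowest, then F3, F0 and set-25. The mutant was above control by 0.67 (SE 0.07, edgeR adjusted p 3.72e-06) and above F3 by 0.33 (SE 0.07, adjusted p 0.0032) on the log2 scale. Between F0 and its neighbours in that order no call was made: F3 against F0 was -0.16 (SE 0.06, edgeR adjusted p 0.0676) and the mutant against F0 0.17 (SE 0.07, adjusted p 0.059). The latter passed with other size factors (RLE, 0.18, adjusted p 0.0465) and in the fit of 6 libraries (0.18, adjusted p 0.0472).

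M162.12 and F56D6.16, both pseudogenes, were highest in warmth and had mutant levels near those of F3. M162.12 had 1.28, 1.28 and 1.09 CPM in control and 9.67, 10.28 and 10.01 CPM in F0. It kept 4.18, 5.35 and 5.19 CPM in F3, and the mutant gave 4.97, 5.30 and 2.73 CPM. Here set-25 replicate 3 was the lowest of the mutant libraries and still above all controls. The log2 change was 3.03 (SE 0.17) in F0, 2.00 (SE 0.18) in F3 and 1.92 (SE 0.19, edgeR adjusted p 2.53e-06) in set-25. Lower F3 levels gave -1.03 against F0 (SE 0.14, edgeR adjusted p 3.65e-05), and mutant and F3 were not separated, at -0.08 (SE 0.16, adjusted p 0.804, interval -0.40 to 0.24).

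F56D6.16 was scarce in control, with 16, 11 and 16.5 counts, or 0.569, 0.308 and 0.513 CPM. In F0 it reached 6.60, 6.83 and 6.97 CPM. Its F3 libraries gave 1.32, 1.10 and 1.11 CPM, and the mutant 1.40, 1.52 and 0.677 CPM, the last from 5.5 counts. Both F3 and mutant stayed above control without overlap, and far below F0. The log2 change against control was 3.90 (SE 0.20) in F0, 1.37 (SE 0.25) in F3 and 1.56 (SE 0.27, edgeR adjusted p 0.000623) in the mutant. Against F0, the F3 level gave -2.53 (SE 0.18, edgeR adjusted p 1.58e-08).

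C18H2.2 and K06B9.4, pseudogenes on different chromosomes, took nearly the same modest rise in all 3 groups. C18H2.2 read 38.7, 41.0 and 41.7 CPM in control, 52.2, 53.3 and 56.3 CPM in F0, 58.7, 55.0 and 48.5 CPM in F3, and 51.8, 51.0 and 60.6 CPM in the mutant. K06B9.4 read 28.5, 31.1 and 31.1 CPM in control, 42.7, 39.8 and 42.6 CPM in F0, 41.8, 41.1 and 36.3 CPM in F3, and 36.98, 38.75 and 42.08 CPM in the mutant. For both genes F0, F3 and mutant libraries overlapped one another and none reached down to control. C18H2.2 changed by 0.41 (SE 0.07), 0.42 (SE 0.07) and 0.41 (SE 0.07, edgeR adjusted p 0.000812) on the log2 scale in F0, F3 and set-25. K06B9.4 changed by 0.46 (SE 0.06), 0.39 (SE 0.06) and 0.36 (SE 0.07, edgeR adjusted p 0.00101). F3 against F0 was 0.0048 for C18H2.2, with an interval of -0.13 to 0.14, and -0.07 for K06B9.4, with an interval of -0.19 to 0.05.

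M04F3.3, W09C3.1 and R10F2.6, all protein coding, rose in warmth and partly in descendants but were not called in the mutant. M04F3.3 (kin-35) gave 5.15, 5.20 and 4.46 CPM in control, 15.6, 15.7 and 14.8 CPM in F0, 8.09, 8.20 and 8.31 CPM in F3, and 6.01, 5.48 and 4.09 CPM in the mutant. W09C3.1 gave 2.70, 2.58 and 2.05 CPM in control, 7.62, 7.53 and 7.56 CPM in F0, 4.35, 3.97 and 4.10 CPM in F3, and 3.05, 2.75 and 1.94 CPM in the mutant. R10F2.6 gave 4.81, 4.19 and 4.43 CPM in control, 17.1, 15.3 and 16.2 CPM in F0, 7.78, 7.07 and 9.10 CPM in F3, and 4.24, 4.24 and 5.04 CPM in the mutant. In each gene the F3 libraries fell between F0 and control without overlap, and mutant and control libraries overlapped. The mutant's log2 difference from control was 0.13 (SE 0.12, interval -0.11 to 0.36, edgeR adjusted p 0.52) for M04F3.3 and 0.14 (SE 0.16, interval -0.17 to 0.46, adjusted p 0.584) for W09C3.1. It was -0.02 (SE 0.13, interval -0.28 to 0.23, edgeR adjusted p 0.939) for R10F2.6. Those intervals end below the F3 values of the same genes, which were 0.73 (SE 0.11), 0.76 (SE 0.14) and 0.84 (SE 0.11). The genes were picked for high F3 counts, which can raise these values and any difference of the mutant from F3. Tested directly, the mutant was lower than F3, with log2 differences of -0.60 (SE 0.12, edgeR adjusted p 0.00167) for M04F3.3, -0.62 (SE 0.15, adjusted p 0.0104) for W09C3.1 and -0.86 (SE 0.12, adjusted p 0.000138) for R10F2.6. For W09C3.1 this was lost with set-25 replicate 2 alone (-0.60, adjusted p 0.106).

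**Figure D2:**
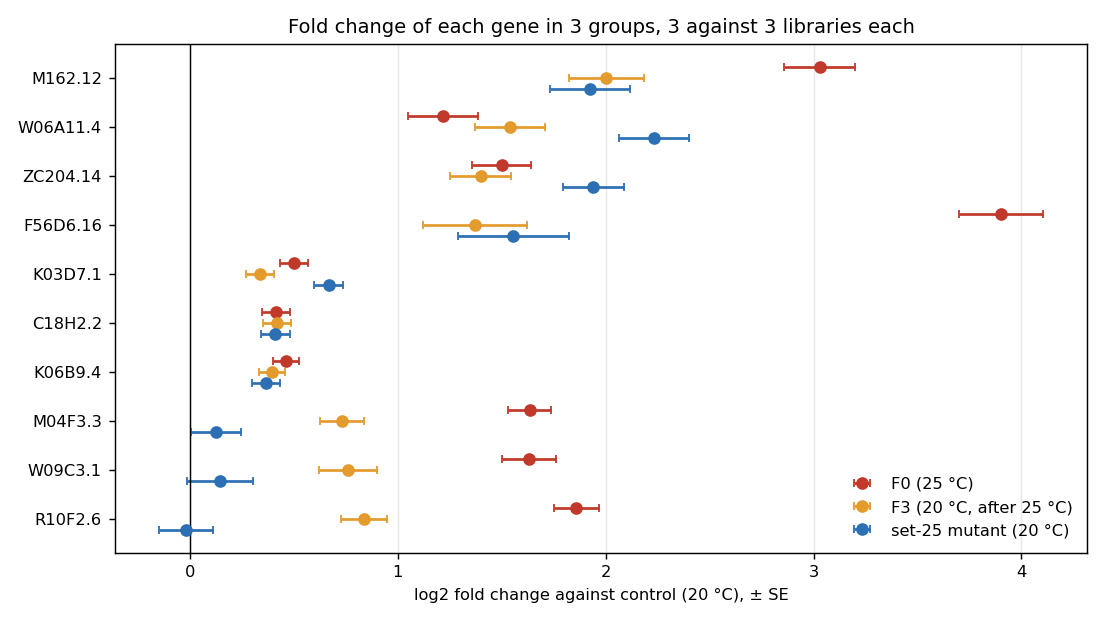
Log2 fold change against control (horizontal axis, points with SE, 3 against 3 libraries) of each gene in F0, F3 and set-25. M04F3.3, W09C3.1 and R10F2.6 have mutant points between -0.02 and 0.14, while W06A11.4, ZC204.14 and K03D7.1 have the mutant point farthest to the right.

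Between the generations, 5 of the 10 were called lower in F3 than in F0 (edgeR, adjusted p under 0.05), where 17.3% of all tested genes were. They were M162.12, F56D6.16, M04F3.3 at -0.90 (SE 0.10), R10F2.6 at -1.02 (SE 0.10) and W09C3.1 at -0.87 (SE 0.12). The other 5 were not called, and their values above run from -0.16 to 0.32. The rise left in F3, as a share of the rise in mean CPM over control in F0, was 11.3% for F56D6.16, 29.9% for R10F2.6, 31.3% for M04F3.3, 33.1% for W09C3.1 and 42.1% for M162.12. It was 63.5% for K03D7.1, 82.9% for K06B9.4, 88.9% for ZC204.14, 101% for C18H2.2 and 143% for W06A11.4. No error is given for these shares, and both rises entered the choice of genes. The 143% rests largely on F3 replicate 2, at 8.81 CPM. Replicates 1 and 3 read 5.83 and 5.28 CPM, beside 5.32 to 5.34 CPM in F0. Set-25 against F0 gave 2 genes higher (17% of all tested genes) and 5 lower (20.4%), and set-25 against F3 gave 3 higher (8.18%) and 3 lower (7.28%). The 3 higher than F3 were W06A11.4, ZC204.14 and K03D7.1, and the 3 lower were M04F3.3, W09C3.1 and R10F2.6. F0 and F3 libraries both entered the choice of genes, so these counts of calls are shaped by it and nothing is read from them.

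Some other transcripts moved with these groups. The summed level of 4 sperm markers was 18.7 to 26.4 CPM in F0, against 1.02 to 3.93 CPM in control, 0.979 to 3.71 CPM in F3 and 1.802 to 6.76 CPM in the mutant, with 4 of 4 called higher in F0 against control. Also in F0, yolk markers summed to 28717 to 33972 CPM against 35743 to 38991 CPM in control, with 2 of 3 called lower, and oocyte markers to 5959 to 6208 CPM against 6532 to 6701 CPM, with 3 of 7 called lower. Epidermis markers summed to 1391 to 1522 CPM in F0 and 1134 to 1168 CPM in control, with 1 of 2 called higher. In F3 their sum was 920 to 1127 CPM, with 0 of 2 called. Muscle markers in F0 summed to 581 to 793 CPM against 494 to 580 CPM in control. There myo-3 was called higher (log2 change 0.57) and unc-54 was not (0.19). Embryo markers summed to 4.08 to 4.79 CPM in F0 against 3.29 to 3.69 CPM in control, with 0 of 6 called. Marker sums also moved in the mutant. Germline markers summed to 864 to 878 CPM there against 1022 to 1065 CPM in control, with 3 of 3 called lower, and yolk markers to 43502 to 47299 CPM, with 2 of 3 called higher. Epidermis markers summed to 894 to 1060 CPM in the mutant, with 1 of 2 called lower. Muscle markers summed to 794 to 1011 CPM in the mutant and 494 to 580 CPM in control, with 1 of 2 called higher. Neuron markers summed to 76.4 to 83.3 CPM in the mutant and 99.7 to 103 CPM in control, with 1 of 3 called higher and 1 lower. The lower neuron sum came from snb-1 (log2 change -0.54), while rab-3 was at 0.56 and unc-13 at 0.10. The muscle rise in the mutant came from unc-54 (1.01), with myo-3 at -0.05. The epidermis sums were almost all col-19. These sums therefore follow single genes. None of these markers was at 0 in all libraries of a group, but some were in single libraries. These include ssp-16 in set-25 replicates 1 and 3, spe-11 in F3 replicate 2 and rol-6 in F3 replicate 3. The part of the markers in the levels of the 10 genes was not tested.

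Several rows tracked each other closely enough that their reads may be shared. Of the deposited values, 22.4% were not whole (tolerance 1e-06), and of the 12 values per gene none was whole for W06A11.4, ZC204.14, C18H2.2, K06B9.4 or K03D7.1, while 5 were for R10F2.6 and for F56D6.16. K03D7.1 and the repeat copy Chapaev-1_CE_29 in the row beside it had a count ratio of 0.990 to 0.997 in the 12 libraries, so that gene and copy cannot be told apart in these counts. M04F3.3 and W09C3.1, 29 rows apart on chromosome I, had a ratio of 1.86 to 2.18 (r = 0.996 between their log2 levels over 12 libraries in 4 groups). C18H2.2 and K06B9.4 had a ratio of 1.22 to 1.44 (r = 0.958), and W06A11.4 and ZC204.14 one of 0.967 to 1.63 (r = 0.954). The ratio of the last pair was 0.967 to 1.05 in F0 and 1.34 to 1.63 in the mutant, so those rows did not keep 1 proportion. Other pairs had r as high, with 0.965 for ZC204.14 and K03D7.1 and 0.959 for M04F3.3 and R10F2.6. A high r alone thus does not mark shared reads. The log2 ratio of the repeat copy Chapaev-1_CE_58 to K06B9.4 had an SD of 0.12 over the 12 libraries. That of klo-1 to C18H2.2, 16560 rows apart, had an SD of 0.11, so an SD of this size alone does not mark shared reads. Whether these pairs share sequence was not tested, and the 10 genes may hold fewer than 10 independent signals.

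**Figure D3:**
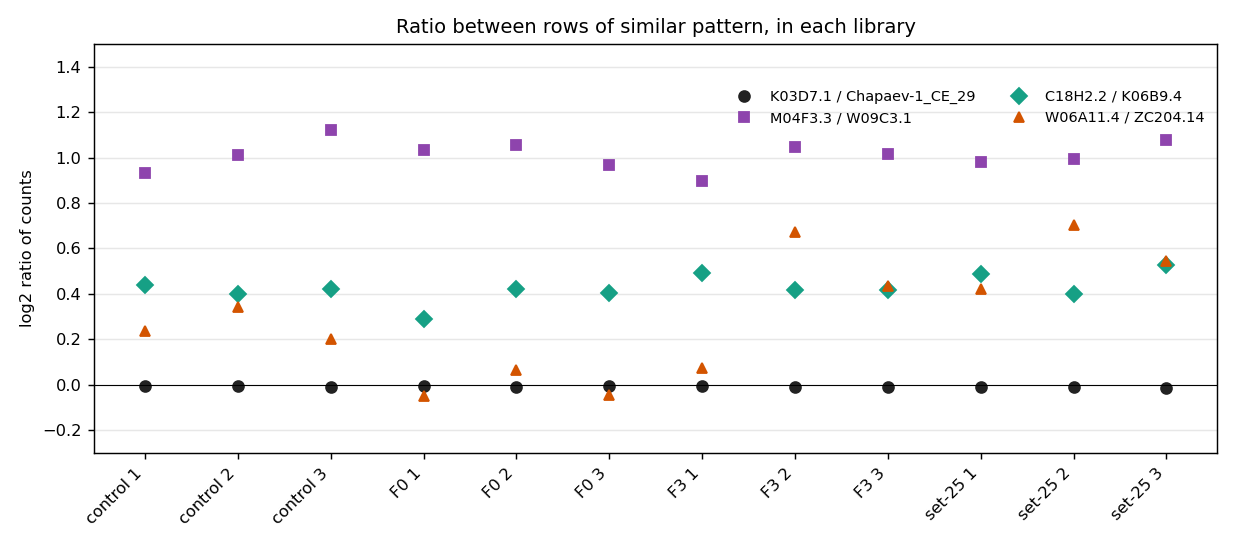
Log2 ratio of deposited counts (vertical axis) between the rows of 4 pairs, in each of the 12 libraries (horizontal axis). K03D7.1 and Chapaev-1_CE_29 stay at a ratio of 0.990 to 0.997, whereas W06A11.4 over ZC204.14 ranges from 0.967 to 1.63.

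Rows of the table follow genome order: of consecutive gene rows matched to RefSeq, 99.97% lay on the same chromosome, and 99.43% of those were in ascending order. Chapaev elements, which are DNA transposons that move by cutting and pasting, were listed within 10 rows of 6 of the 10 genes, against 2.682% of all tested genes. Within 5 rows it was 5 genes (1.396%), and within 25 rows 6 genes (5.44%). Chapaev-2_CE copies flanked ZC204.14 in the rows directly before and after it, stood on both sides of W06A11.4 within 4 rows, lay 2 and 3 rows after M162.12, and 3 to 6 rows after M04F3.3. For K06B9.4 and K03D7.1 the copy was of Chapaev-1_CE, 8 rows and 1 row away. C18H2.2, F56D6.16, R10F2.6 and W09C3.1 had none in that window. More members had CELE46A (5 of 10) than Chapaev-2_CE (4 of 10) within 10 rows, but CELE46A was there for 33.6% of tested genes and Chapaev-2_CE for 1.189%. This family was singled out after the listing was seen, and rows that share reads with a gene are not separate evidence, so no test is given.

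**Figure D4:**
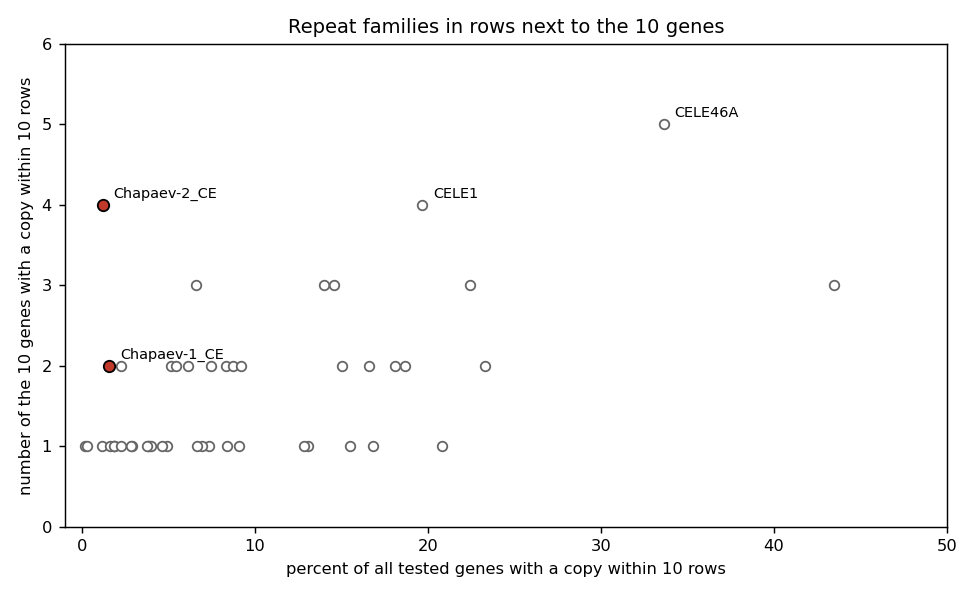
Number of the 10 genes with a copy of a repeat family within 10 table rows (vertical axis) against the percent of all 14466 tested genes with one (horizontal axis); each point is a family found near at least 1 of the 10. Chapaev-2_CE stands at 4 genes and 1.189%, and CELE1 at 4 genes and 19.7%.

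Few of the neighbouring repeat copies had enough counts to test. Of 136 copies within 10 rows, 8 were tested, and 2 were called higher in F0 (3.85% of 1092 copies tested), 1 in F3 (1.65%) and 2 in set-25 (6.04%). Both called copies were of Chapaev-1_CE. Chapaev-1_CE_29, the copy that cannot be separated from K03D7.1, changed by 0.50, 0.34 and 0.67 on the log2 scale in F0, F3 and set-25. Chapaev-1_CE_58, near K06B9.4, read 21.2, 20.9 and 20.7 CPM in control, 24.9, 25.1 and 24.5 CPM in F0, 24.8, 23.5 and 23.7 CPM in F3, and 25.2, 25.2 and 25.0 CPM in the mutant. Every library of the other groups was above control for it, with log2 changes of 0.25 (SE 0.06), 0.20 (SE 0.07, edgeR adjusted p 0.256, not called) and 0.27 (SE 0.07). The Chapaev-2_CE copies were mostly too low: those beside ZC204.14 summed to 0.91 and 5.42 counts over 12 libraries. The 3 that were tested, Chapaev-2_CE_9 and Chapaev-2_CE_10 near M04F3.3 and Chapaev-2_CE_40 near W06A11.4, were not called in any of the 3 comparisons, with log2 values from -0.23 to 0.34. Calls among these copies were few and changed when 1 library was left out, with 1 in F0, 0 or 1 in F3 and 1 or 2 in set-25.

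Genes around the 10 were tested in the same way. Of 100 gene rows within 5 gene rows of a member, 52 were tested. In F3, 3 of them (5.77%) were called higher, against 0.138% of all tested genes. In F0, 19 (36.5%) were higher and 8 (15.4%) lower, against 16.6% and 12% of all tested genes, and in set-25 6 (11.5%) were higher, against 8.9%. These neighbours share libraries with the genes they surround, and 2 of the 3 called in F3, F30B5.4 and fbxa-136, are also among the 8 genes called in both F0 and F3 that were not picked.

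Of those 3, fbxa-136, an F-box gene in the row after K03D7.1, had 7, 5 and 6 counts in control, 33.5, 19 and 33 in F0, 23, 22 and 19.5 in F3, and 36, 49.5 and 16 in the mutant. Scaled to depth these gave 0.14 to 0.25 CPM in control and 1.73 to 1.97 CPM in the mutant, with F0 and F3 between and overlapping. The log2 change was 2.13 (SE 0.32) in F0, 1.91 (SE 0.34, edgeR adjusted p 0.0133) in F3 and 3.27 (SE 0.31, adjusted p 1.27e-06) in set-25. The F3 call was lost with only 6 libraries in the fit (adjusted p 0.0698) and without control replicate 2 or 3 or F3 replicate 1 or 2 (0.0543 to 0.128). F30B5.4, 4 gene rows after K06B9.4, read 48.1, 47.0 and 48.1 CPM in control, 71.0, 69.3 and 72.1 CPM in F0, 62.2, 76.5 and 69.9 CPM in F3, and 49.8, 52.7 and 50.4 CPM in the mutant. F0 and F3 overlapped, well above the other groups. It changed by 0.57 (SE 0.06) in F0, 0.54 (SE 0.06, edgeR adjusted p 8.74e-05) in F3 and 0.10 (SE 0.06, adjusted p 0.294) in the mutant. The gene nhx-6, of the sodium/proton exchanger class and 4 gene rows after ZC204.14, had its highest counts in F3, with 5, 3 and 0 counts in control, 2, 1 and 1 in F0, 35, 25.5 and 25 in F3, and 5, 2 and 2 in the mutant. Its log2 change in F3 was 3.44 (SE 0.50, edgeR adjusted p 0.0024), from counts this low in the other groups.

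**Figure D5:**
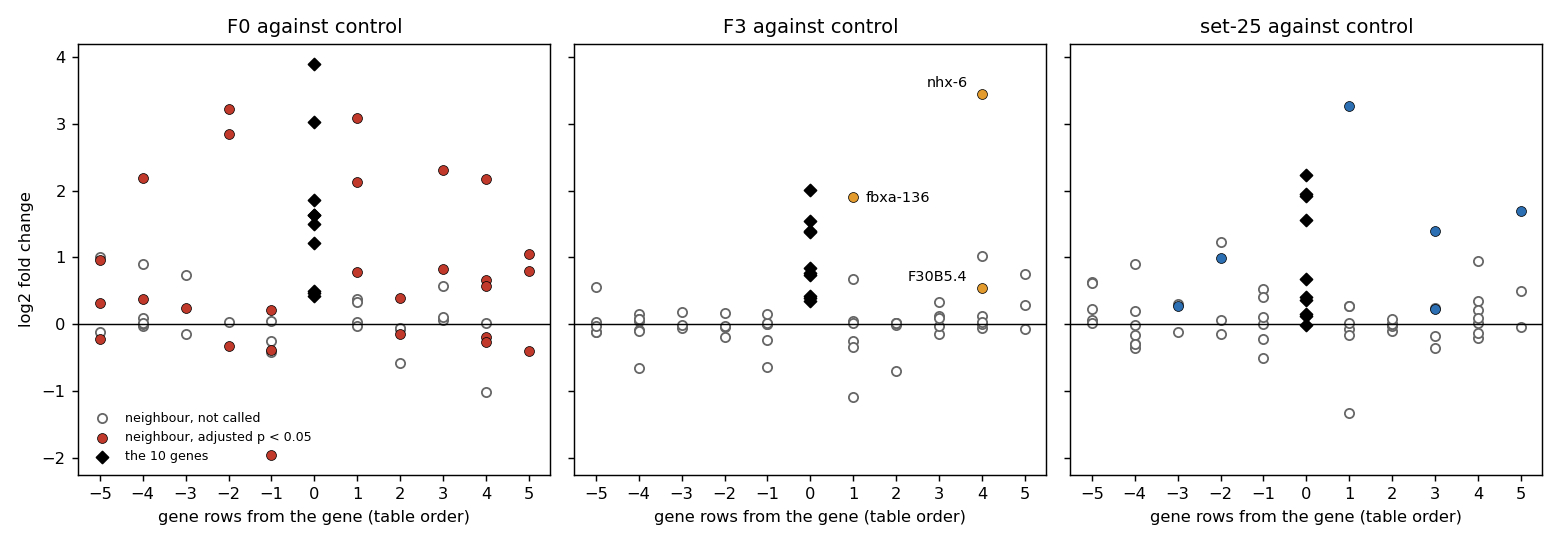
Log2 fold change against control (vertical axis) of tested genes up to 5 gene rows before or after each of the 10 genes (horizontal axis), in F0, F3 and set-25; diamonds at 0 are the 10 genes, filled circles are neighbours with an adjusted p under 0.05. In F3, nhx-6 at 3.44, fbxa-136 at 1.91 and F30B5.4 at 0.54 are the 3 filled circles.

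By correlation of log2 CPM over the 12 libraries, the genes outside the 10 most like their mean profile were Y39F10C.2 (r = 0.931), F53B1.8 (0.913), C25G4.7 (0.912), F20D1.1 (0.902) and K11G9.2 (0.901). Y39F10C.2 had log2 changes of 2.13, 1.71 and 1.46 in F0, F3 and set-25, and C25G4.7 of 2.83, 1.12 and 1.49. K11G9.2 had 1.48, 0.44 and 0.55. Smaller changes were seen for F53B1.8, at 0.59, 0.26 and 0.20, and F20D1.1, at 0.62, 0.23 and 0.36. None of them is among the 18 genes called higher in both F0 and F3. Nearest to single genes were Y39F10C.2 for M162.12 (r = 0.970), K08F11.2 for ZC204.14 (0.970), F20D1.3 for R10F2.6 (0.964), H05C05.2 for F56D6.16 (0.966) and Y20F4.5 for K03D7.1 (0.973), and each of the rest was nearest to another of the 10. H05C05.2 is also the 3rd gene row after R10F2.6. In F0, F3 and set-25, K08F11.2 changed by 0.24, 0.18 and 0.27 and H05C05.2 by 0.82, 0.11 and 0.22. F20D1.3 changed by 0.62, 0.14 and -0.18, and Y20F4.5 by 0.21, 0.19 and 0.36. Libraries fall into 4 groups, so the r values mostly describe the order of the group means, not the size of a change.

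A list of genes mainly for H3K9 methylation, heterochromatin and RNA interference was examined beside the 10. It also held hsf-1, a heat shock factor gene, and set-25 itself. Against control, hsf-1 was among those called lower in F0 and higher in the mutant, and set-25 among those lower in both. Called higher than F0 in both F3 and the mutant was hsf-1, and called lower in the mutant than in F3 was set-25. Of 34 listed, 29 were tested. In F0, 8 were called lower and 1 higher than control (12% and 16.6% of all tested genes). In F3 against control edgeR called 0 of 29, with 0 at an unadjusted p under 0.05 and 0 by DESeq2. Of all 14466 tested genes edgeR called 20 higher there (0.138%), 731 had an unadjusted edgeR p under 0.05, and DESeq2 called 45. With shares this low, nothing is read from the 0 of 29. In the mutant 3 were higher and 3 lower (8.9% and 8.14% of all tested genes), led by lin-15B, a regulator of germline genes in somatic cells, at 0.18 (SE 0.04, edgeR adjusted p 0.00984), and hpl-2, an HP1 protein that binds methylated H3K9, at -0.16 (SE 0.04, adjusted p 0.0125). From F0 to F3, 10 rose and 1 fell (13.1% and 17.3% of all tested genes). The smallest p-values belonged to cec-4, which anchors H3K9-methylated chromatin at the nuclear envelope, at -0.59 (SE 0.06, edgeR adjusted p 8.64e-07), and set-6, which encodes a SET domain protein, at 0.71 (SE 0.12, adjusted p 0.000253). Transcript of set-25 was 53.1, 50.8 and 55.6 CPM in F0 and 61.9, 77.2 and 71.5 CPM in F3, the first below the control range and the second overlapping it. The mutant against F0 gave 12 higher and 1 lower (17% and 20.4% of all tested genes), and against F3 1 higher and 2 lower (8.18% and 7.28%).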

How the data were processed

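The authors deposited estimated counts per gene and per single repeat copy for 12 libraries, of which 22.4% are not whole. Per the labels' protocols, TRIzol RNA was made into stranded libraries after ribosomal RNA depletion, without poly(A) selection. The submitters' processing notes list TopHat2 2.1.0, featureCounts 1.5.1 and DESeq2 1.8.1 without saying what each did. No source used here gives the build, annotation, strand setting or handling of multi-matching reads, and no coordinates are printed.

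Expected counts were rounded and tested with edgeR 4.0.16 in R 4.3.3 (robust quasi-likelihood fit, TMM, filterByExpr by group, 12 libraries in 1 fit with a term per group, two-sided, Benjamini-Hochberg over 14466 genes, called under 0.05). Whole-number counts had been assumed when the test was chosen. Single copies (1092) were fitted likewise with the library sizes of the genes. The procedure was run on simulated data that gave a gene the same spread in every library. Those data lack the larger spread between replicates of F3 and the mutant, so they do not test the procedure for it. Intervals are 95% normal intervals from the SE. Names matched RefSeq for 45128 of 45836 gene rows. All 10 genes were named, with called neighbours, set-25, the genes most correlated with them and up to 4 genes of the H3K9 list, the 2 with the smallest p in each of the mutant and the generation comparison. The members and lists were chosen with earlier results of these data known. DESeq2 1.42.0, RLE scaling, no filter, fits of 6 libraries, a fit of genes with copies, unrounded values, other windows, a replicate block and leaving out libraries were tried. The labels call replicates biological, and p-values cover the spread between those libraries, estimated for each gene over all groups together. Replicates of F3 and the mutant differed more than those of control and F0. The SE and p-values of their comparisons may therefore be too small. The 3 lowest totals are those of the mutant libraries, where low counts are the least precise.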

Additional observations from a re-analysis of the deposited data

How the results depend on the processing

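Over the alternatives, the 10 genes kept direction and call in 130 of 130 values for F0 against control. For F3 against control 108 of 130 kept both and 22 lost the call (W09C3.1, C18H2.2, F56D6.16, K06B9.4 and K03D7.1). The number called in F3 was 6 with only the 6 libraries compared and 5 to 10 when 1 library was left out, lowest without F3 replicate 2. Fewer samples enter those fits, and the fit of 6 takes its spread from F3 and control alone. With only the 6 libraries of F0 and control, 10 of 10 kept their call in F0. What lowered the number in F3 was not tested. Same-numbered libraries deviated together little (r from -0.163 to 0.136). The largest r, for replicate 1 of F0 and control, passed the limit of 0.1 set for pairing, so pairing is not excluded. With a replicate block in the edgeR fit, K03D7.1 in F3 stayed at 0.34 but lost its call (adjusted p 0.0849), and 9 of 10 were called.

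Neighbouring repeat copies called numbered 1, 0 and 1 in F0, F3 and set-25 with no low-count filter, which tests more copies, and 1 in F0 and 1 in set-25 within 5 rows. Leaving out 1 library gave 1 to 1 in F0, 0 to 1 in F3 and 1 to 2 in set-25. With 10 gene rows on each side, 14 neighbouring genes were called in set-25, 9 higher and 5 lower.

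Signs changed only in values that were not called, and the cause was not tested. With 1 library left out, R10F2.6 in set-25 against control ran from -0.079 to 0.028, ZC204.14 in F3 against F0 from -0.17 to 0.048, and C18H2.2 there from -0.043 to 0.078. In set-25 against F0, C18H2.2 gave 0.0069 by RLE, 0.0098 by DESeq2, 0.0018 with 6 libraries and -0.058 to 0.042 with 1 left out. In set-25 against F3, M162.12 ran from -0.25 to 0.065 with 1 left out and was 0.11 without set-25 libraries 1 and 3, C18H2.2 ran from -0.082 to 0.043 and K06B9.4 from -0.091 to 0.012. For nhx-6 in set-25 against control the value was 0.94 (SE 0.78) with all libraries and -0.14 without those 2.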
